A study of Mus musculus with 6 samples.

Results

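The Dlk1-Meg3 cluster is an imprinted stretch of mouse chromosome 12, taken here as 6 genes: Dlk1, Meg3, Rian, Mirg, Rtl1 and Dio3. Members were the probe sets whose platform annotation gives 1 of these symbols, which found 19 of the 44994 probe sets on the array. Dlk1 had 2 probe sets, Meg3 11, Rian 4 and Mirg 2, so 4 of the 6 genes were measured among 18182 genes in all. Rtl1 and Dio3 had no probe set named for them and were not analysed here.

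RNA was measured in Pax7-nGFP+ limb cells of Tg:Pax7-nGFP mice, on a C57BL/6:DBA2 background, at stages E17.5 and E12.5, counted in days of embryonic development. Both ages carried the same transgene and were sorted for its green fluorescence, and neither received a treatment. Each age had 3 arrays labelled as biological replicates A, B and C. The transgene places nuclear GFP under Pax7, a transcription factor of muscle stem and progenitor cells, so the cells are those in which the reporter was visible at the sort. Both ages are labelled limb skeletal muscle, with limb buds as the source.

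In an imprinted cluster, a gene is transcribed from the copy inherited from 1 parent while the other copy is silent. In this one the paternal copy gives the protein-coding genes Dlk1, Rtl1 and Dio3, and the maternal copy gives the noncoding RNAs Meg3, Rian and Mirg, together with many small RNAs. A methylated region between Dlk1 and Meg3 sets which copy is used. In sheep, a base change in the matching cluster underlies the callipyge muscle overgrowth, and in mice Dlk1 and Rtl1 have been linked to fetal muscle. The arrays do not separate the parental copies.

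The maternal copy gives microRNAs, and these sequences are shown because their genes lie within the cluster. Only some of them are inside the spans of Meg3, Rian and Mirg. RefSeq (build GRCm38.p6) places 61 microRNA genes between Dlk1 and Dio3, 57 of them on the plus strand, with 113 distinct mature names. None of the mature RNAs was measured, since the values below are of the long transcripts. Of the plus-strand genes, 2 lie inside the span of Meg3, 13 inside that of Rtl1, 3 inside that of Rian and 10 inside that of Mirg, while 29 lie between Rian and Mirg. Those inside Rtl1 lie on the strand opposite to it, and some of them, such as miR-127 and miR-136, are known to pair with its messenger RNA along their whole length. Examples from the Meg3, Rtl1 and Rian spans follow, 5′ to 3′, with the seed (bases 2 to 8) in capitals.
mmu-miR-770-5p (chr12:109563710-109563731, plus strand): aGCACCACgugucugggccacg
mmu-miR-431-5p (chr12:109590459-109590479, plus strand): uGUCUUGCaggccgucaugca
mmu-miR-433-3p (chr12:109591781-109591802, plus strand): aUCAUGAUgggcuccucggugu
mmu-miR-127-3p (chr12:109592888-109592909, plus strand): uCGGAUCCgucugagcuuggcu
mmu-miR-434-3p (chr12:109594565-109594586, plus strand): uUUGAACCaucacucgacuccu
mmu-miR-136-5p (chr12:109595331-109595352, plus strand): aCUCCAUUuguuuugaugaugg
mmu-miR-370-3p (chr12:109618305-109618326, plus strand): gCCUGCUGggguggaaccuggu

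The 113 mature sequences had 104 distinct seeds, so most differed in the bases that pair with a target. Seeds found in more than 1 mature numbered 9, and they covered 18 mature sequences. The pairs below show 3 of these shared seeds, with members in the Mirg span or between Rian and Mirg.
mmu-miR-410-5p (chr12:109743729-109743749, plus strand): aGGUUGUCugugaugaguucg
mmu-miR-494-5p (chr12:109715334-109715355, plus strand): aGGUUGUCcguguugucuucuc
mmu-miR-496a-5p (chr12:109739132-109739152, plus strand): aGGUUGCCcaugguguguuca
mmu-miR-453 (chr12:109735669-109735692, plus strand): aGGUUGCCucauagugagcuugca
mmu-miR-379-3p (chr12:109709102-109709123, plus strand): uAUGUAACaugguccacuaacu
mmu-miR-411-3p (chr12:109710225-109710246, plus strand): uAUGUAACacgguccacuaacc

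The 250 bases before the annotated start of Dlk1 and of Meg3 are shown because those 2 genes stand on either side of the methylated control region and are read from opposite parental copies. Both are RefSeq sequence of build GRCm38.p6. Matches to TATAAA, TGACGTCA (the full cAMP response element) and CCAAT, on either strand, are in capitals.
Dlk1 (chr12:109452573-109452822, plus strand): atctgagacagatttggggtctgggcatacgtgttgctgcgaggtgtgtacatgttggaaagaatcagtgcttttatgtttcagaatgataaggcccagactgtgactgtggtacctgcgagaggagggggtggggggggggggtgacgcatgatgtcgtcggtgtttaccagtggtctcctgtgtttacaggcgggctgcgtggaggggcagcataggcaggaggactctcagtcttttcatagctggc
Meg3 (chr12:109540746-109540995, plus strand): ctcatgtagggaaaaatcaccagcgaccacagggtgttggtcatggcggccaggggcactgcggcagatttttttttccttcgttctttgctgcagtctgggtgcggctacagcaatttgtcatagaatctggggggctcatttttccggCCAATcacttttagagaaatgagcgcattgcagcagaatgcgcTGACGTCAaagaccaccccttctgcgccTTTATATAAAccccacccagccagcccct

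The Meg3 window held TATAAA on both strands in overlapping positions, whose first bases lay 29 and 25 bases before the start, a TGACGTCA 57 bases before it and a CCAAT 100 bases before it. Among 32851 RefSeq promoter windows, 12.4% held a TATAAA, 1.55% a TGACGTCA and 33.8% a CCAAT. The Dlk1 window held none of these 3 motifs and no CANNTG (in 66.2% of windows). No match says only that these letters are not in this window. The Dlk1 window had 8 CpG dinucleotides and 54.8% G and C, the Meg3 window 10 and 52.4%, against medians of 6 and 52.4% over the windows. A second Meg3 start entry (chr12:109545148-109545397) held none of the 3 capitalised motifs.

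All 4 measured genes rose at E17.5 and none fell. Values are log2 signals after GCRMA, a microarray method that corrects for background by probe sequence. Differences are E17.5 minus E12.5, with the standard error (SE) of limma, a linear model fitted across the 18182 genes with 1 probe set each, and its Benjamini-Hochberg adjusted p. A gene was called at an adjusted p under 0.05. The background of higher calls over all genes was 8.21%, and that of lower calls 8.73%. The median difference over all genes was 0.0033. No member fell at an unadjusted p under 0.05 either. The labels call the replicates biological without saying whether they came from separate embryos or pools, so p-values measure the spread between these samples.

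Dlk1 encodes a transmembrane protein with EGF-like repeats, related to the Notch ligands but without their receptor-activating domain, and is known for holding back fat cell differentiation. Its log2 signal was 11.59, 11.72 and 12.43 in E17.5 A, B and C, against 5.82, 7.79 and 5.20 in E12.5 A, B and C. The ages did not overlap, the lowest E17.5 array lying 3.80 above the highest E12.5 array. Dlk1 averaged 11.91 ± 0.45 at E17.5 and 6.27 ± 1.35 at E12.5 (SD, n = 3 each), a difference of 5.64 ± 0.64 (SE), or 50.0-fold (limma adjusted p = 0.00179). Ordered by difference, it stood 16th among the 18182 genes. E12.5 B was the high array of its age, and without it the difference was 6.40, or 84.6-fold.

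The other Dlk1 probe set, 1442724_at, read 10.20, 10.10 and 11.07 at E17.5 and 2.57, 3.47 and 2.57 at E12.5. Its E12.5 values lie under 4, the range into which GCRMA packs probe sets without specific signal and where 42.8% of genes had their mean, so its difference of 7.59 ± 0.37 (SE) depends on the background model. Its adjusted p over all probe sets was 0.00025. Both Dlk1 probe sets had their highest value in E17.5 C among E17.5 arrays and in E12.5 B among E12.5 arrays.

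Meg3 is a long noncoding RNA of the maternal copy, which lies nearest to the control region on the side away from Dlk1. Its main probe set read 13.60, 13.52 and 13.11 at E17.5, against 10.93, 11.79 and 10.57 at E12.5. The signal was high at both ages and the ages did not overlap. It averaged 13.41 ± 0.26 at E17.5 and 11.10 ± 0.63 at E12.5 (SD, n = 3 each), a difference of 2.31 ± 0.31 (SE), or 4.97-fold (limma adjusted p = 0.00363).

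Rian is the next maternal noncoding RNA, known as a host of small nucleolar RNAs. Its main probe set read 10.01, 10.93 and 10.83 at E17.5, against 8.44, 7.05 and 7.85 at E12.5, without overlap. Rian averaged 10.59 ± 0.50 at E17.5 and 7.78 ± 0.70 at E12.5 (SD, n = 3 each), a difference of 2.81 ± 0.40 (SE), or 7.01-fold (limma adjusted p = 0.00438). This probe set and 1428055_at were nearly tied as the main one, with means of 9.19 and 9.15 over the 6 arrays. The second of them, 1428055_at, gave a difference of 4.29, reading 11.73, 11.63 and 10.53 at E17.5 and 6.83, 7.70 and 6.50 at E12.5.

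Mirg is the noncoding RNA farthest from Dlk1 among the measured members and carries a group of microRNAs along its span. It read 7.71, 7.92 and 7.42 at E17.5, against 3.84, 4.40 and 4.36 at E12.5. Every E17.5 array was at least 3.02 above every E12.5 array, and the E12.5 values sat at the edge of the low range. Mirg averaged 7.68 ± 0.25 at E17.5 and 4.20 ± 0.31 at E12.5 (SD, n = 3 each), a difference of 3.48 ± 0.27 (SE), or 11.2-fold (limma adjusted p = 0.000381). Its second probe set, 1440097_at, read 6.92, 5.87 and 6.18 at E17.5 and 4.49, 4.80 and 4.47 at E12.5.

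**Figure D1:**
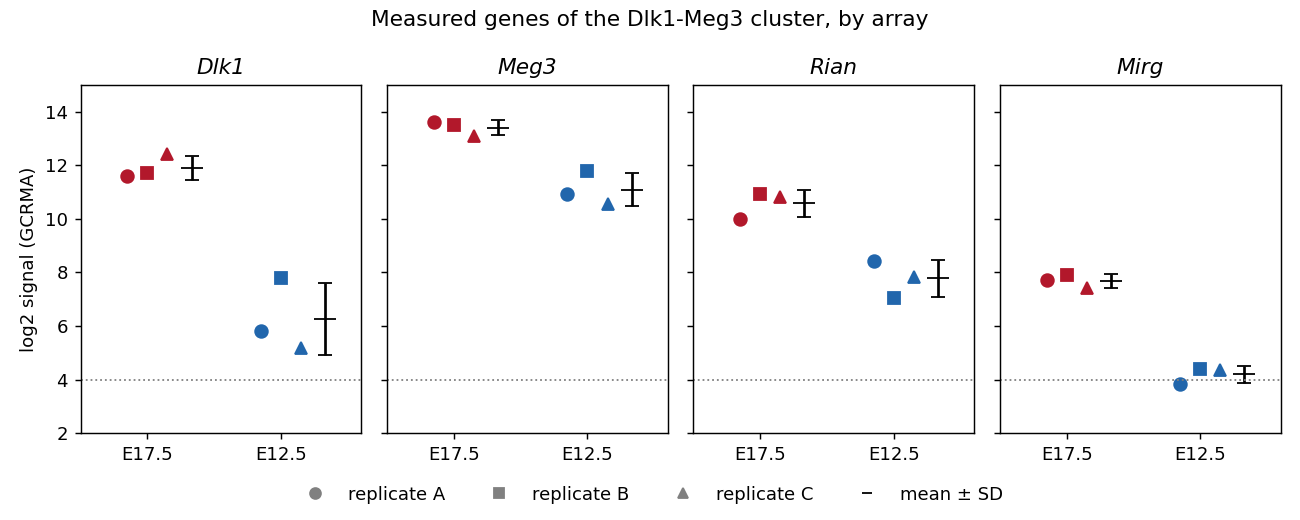
Log2 signal of the main probe set of Dlk1, Meg3, Rian and Mirg on each array, E17.5 in red and E12.5 in blue. Black marks give the mean ± SD of 3 arrays, and the dotted line marks 4, under which GCRMA packs probe sets without specific signal. In every panel the 3 E17.5 arrays lie above the 3 E12.5 arrays, with gaps of 3.80, 1.32, 1.57 and 3.02.

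Of genes on the array, 14.2% had all E17.5 arrays above all E12.5 arrays, as the 4 members did. Leaving out any 1 array kept all 4 calls, with differences of 5.11 to 6.40 for Dlk1, 2.05 to 2.66 for Meg3, 2.445 to 3.14 for Rian and 3.30 to 3.62 for Mirg. E17.5 A and B were the most alike of same-age arrays: over 8758 genes averaging 6 or more, their difference had an SD of 0.152, against 0.412 to 0.551 for the 5 remaining pairs of an age. Averaging those 2 arrays into 1 sample left all 4 genes called, with limma adjusted p of 0.0073 for Dlk1, 0.0155 for Meg3, 0.00956 for Rian and 0.00307 for Mirg.

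In the main probe sets the Dlk1 difference exceeded that of Meg3 by 3.33, that of Rian by 2.83 and that of Mirg by 2.16 on the log2 scale. For each of these 3 pairs the within-array difference did not overlap between the ages. The exact two-sided permutation test gave p = 0.1 for each, 0.1 also after adjustment over the 3 pairs, which is the smallest p that 3 against 3 arrays allow. With 1428055_at, the nearly tied probe set of Rian, the excess over Rian was 1.36 (exact permutation p = 0.3), an alternative chosen after seeing the data. Levels of different probe sets are not compared. In bulk RNA, more cells expressing a gene and more of its RNA per cell cannot be told apart.

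Over all 19 probe sets, 13 were called higher, 0 lower and 6 were not called, in a fit over the 44994 probe sets in which 4.54% were called higher. All 19 differences were above 0, and 18 had an unadjusted p under 0.05. In 17 the E17.5 arrays lay above every E12.5 array, against 10.7% of all probe sets. Probe sets of 1 gene share its transcripts, and some Meg3 probe sets were designed from the same sequence record, so they are not separate tests of the gene.

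The 6 probe sets that were not called all belonged to Meg3. Their differences were 0.12, 1.76, 1.76, 2.18, 2.31 and 2.69, with adjusted p between 0.0604 and 0.882. The smallest came from 1429256_at, which read 3.22, 3.22 and 3.25 at E17.5 and 2.99, 3.49 and 2.84 at E12.5, within the low range at both ages. The other Meg3 probe set whose ages overlapped, 1429257_at, read 9.02, 8.95 and 6.75 at E17.5, against 5.46, 6.88 and 5.46 at E12.5. There E17.5 C lay just under E12.5 B, while E17.5 A and B stood above all E12.5 arrays.

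The 5 Meg3 probe sets that were called differed by 2.31 to 3.25. Among them 1436713_s_at read 12.33, 12.35 and 10.80 at E17.5 and 9.01, 8.61 and 8.11 at E12.5 (difference 3.25, adjusted p over all probe sets 0.00921). The dimmer 1436057_at read 7.46, 7.52 and 6.77 at E17.5 and 3.70, 4.44 and 3.90 at E12.5 (difference 3.24, adjusted p 0.00201). Rian's 4 probe sets were all called, with differences of 2.81 to 4.29, and so were both of Mirg, at 3.48 and 1.74. Thus within Mirg the size of the difference depended on the probe set, from 3.33-fold to 11.2-fold.

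**Figure D2:**
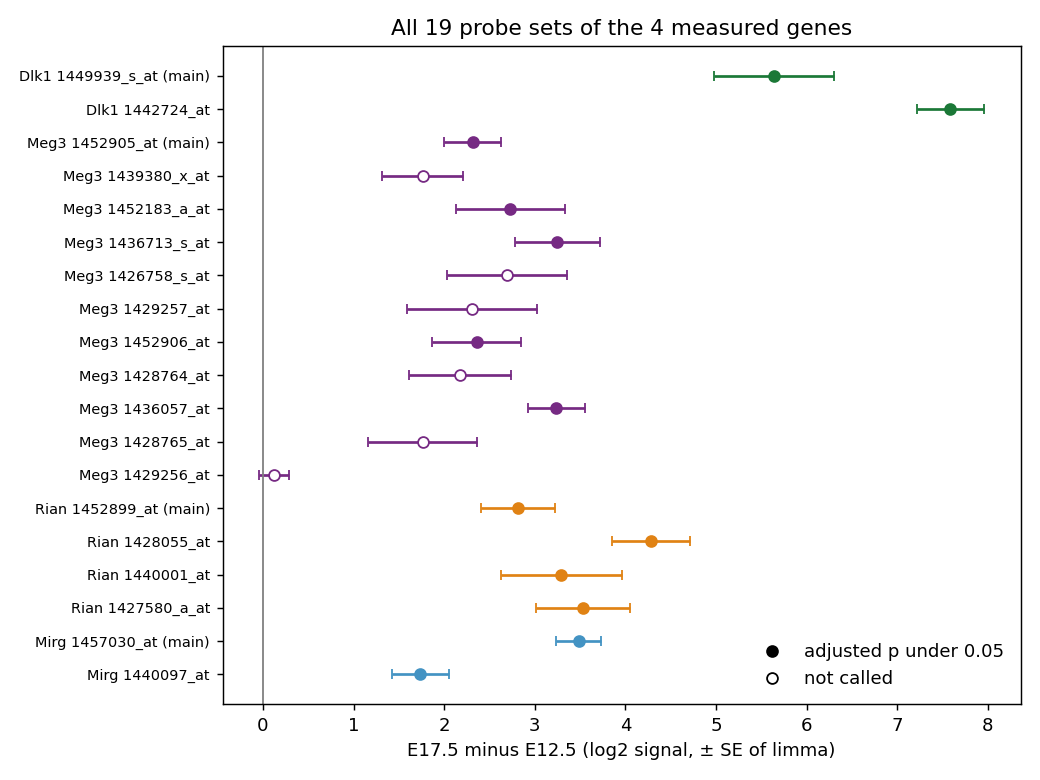
Difference in log2 signal, E17.5 minus E12.5, for each of the 19 probe sets, with the SE of the limma fit over all probe sets as bars. Filled points passed an adjusted p under 0.05 (13 of 19). All points lie right of 0, from 0.12 for 1 dim Meg3 probe set to 7.59 for the second Dlk1 probe set.

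At E17.5, array C stood differently for Dlk1 than for most probe sets of Meg3 and Rian, though not for the main row of Rian. E17.5 C was the lowest E17.5 array in 14 of the 19 probe sets: 10 of Meg3, 3 of Rian and 1 of Mirg. For both Dlk1 probe sets it was instead the highest. The share of all probe sets with C lowest was not counted. Since E17.5 A and B were the most alike of same-age arrays, C can lie at an end for many genes. The main rows gave E17.5 C minus the mean of A and B as 0.78 for Dlk1, -0.45 for Meg3, 0.36 for Rian and -0.40 for Mirg, against an SD of 0.51 over genes averaging 6 or more. Over all 11 Meg3 probe sets the median of this difference was -1.07 (range -2.24 to 0.03), and over those of Rian it was -1.28 (range -1.90 to 0.36).

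At E12.5, with the share over all probe sets again not counted, array B was the highest of its age in 17 of the 19. Its difference from the mean of A and C was 2.28 for the main row of Dlk1, 1.04 for Meg3 and 0.30 for Mirg, where the SD over genes was 0.43. The main row of Rian went the other way, by -1.10, while the other Rian probe sets were highest in B. So the main row and the other probe sets of Rian disagreed on the order of arrays within both ages. The E12.5 arrays of Dlk1 spread from 5.20 to 7.79, yet the highest of them stayed under the lowest E17.5 array, 11.59.

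**Figure D3:**
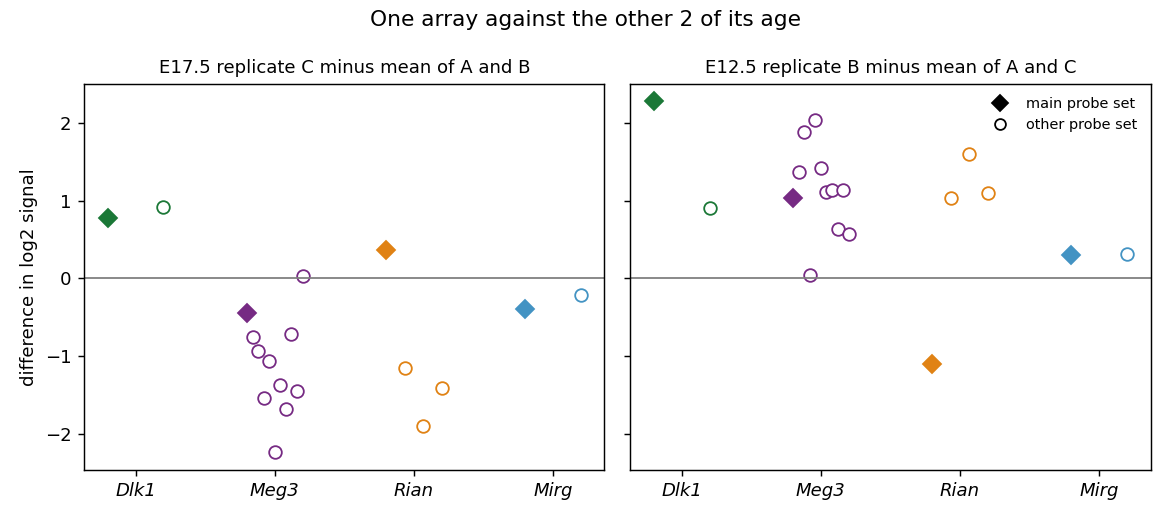
Within each age, the difference in log2 signal between 1 array and the mean of the other 2, for every probe set of the 4 genes (E17.5 C left, E12.5 B right; diamonds are main probe sets). E17.5 C is above 0 for Dlk1 and below 0 for nearly all Meg3 probe sets, down to -2.24. E12.5 B is above 0 for 18 of 19 probe sets, the exception being the main row of Rian at -1.10.

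Markers of other cell types were read gene by gene, since 1 gene often carried the sum of a list on the linear scale. The 10 muscle progenitor markers, all above 4 on at least 1 array, summed to 31002 to 34686 on E17.5 arrays, against 16804 to 23684 on E12.5 arrays. Among them Pax7, Myog and Chrna1 were called higher, Pax3, the paired-box factor of migrating limb muscle precursors, lower, and 6 were not called.

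The 9 fibroblast and mesenchyme markers were split, with 2 called higher, 3 lower and a median difference of -1.44. Pdgfra differed by -3.68, Prrx1 by -1.95 and Twist2 by -3.21, while Dpt differed by 9.04 and Col1a1 by 2.76. Their sum, 16777 to 21570 at E17.5 and 5674, 20460 and 6551 in E12.5 A, B and C, came mostly from Col3a1 (80.7% of it at E17.5 and 68.1% at E12.5), which was not called. None of the 9 was under 4 on all arrays. All 9 were highest in B among E12.5 arrays and 8 of 9 were lowest in C among E17.5 arrays. Most Meg3 and Rian probe sets were high or low in these same arrays within their age. E12.5 B was also highest for 7 of 7 endothelial, 7 of 7 cartilage, 6 of 7 macrophage and 5 of 6 keratinocyte markers. It was highest for 2 of 10 muscle progenitor, 3 of 7 erythroid, 1 of 5 Schwann and 0 of 6 adipocyte markers. E17.5 C was lowest for 5 of 7 cartilage and 4 of 7 endothelial markers, and for 2 to 4 in each remaining list. Order says little for markers under 4 on all arrays: 4 macrophage, 3 erythroid, 3 Schwann, 3 adipocyte, 2 endothelial and 1 cartilage. The share of all genes with these orders was not counted. Among the lists, the order was not particular to fibroblast markers, and its cause was not tested.

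Of the 7 endothelial markers, 1 was called higher, Tek, which averaged 10.18 at E17.5 and 5.29 at E12.5. The other 6 had differences below 0, none called, and the list's median was -0.35. Its sum, 1117 to 1367 at E17.5 and 100 to 264 at E12.5, was 94.8% Tek at E17.5, and Pecam1 and Tie1 were under 4 on all arrays. Of the 7 macrophage and leukocyte markers Cd68 was called, higher by 2.99. The median of that list was -0.08, its sum 172 to 188 at E17.5 and 76 to 168 at E12.5, and Ptprc, Tyrobp, Fcer1g and Cx3cr1 were under 4 on all arrays.

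Adipocyte markers bear on Dlk1, which is also a preadipocyte gene. Of the 6 measured, Fabp4 (4.26) and Lpl (0.99) were called higher and Zfp423 (-2.01) lower, and Pparg, Cebpa and Adipoq were under 4 on every array. They summed to 2451 to 3111 at E17.5 and 1375 to 2042 at E12.5, of which Lpl, also a muscle gene, made 85.1% at E17.5 and 72.1% at E12.5.

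In the 4 other lists no marker was called higher. Of 7 erythroid markers 3 were lower, all embryonic globin genes, and the sum was 61 to 89 at E17.5 and 8392 to 31444 at E12.5, 97.6% of it Hbb-y at E12.5 (Hba-a1, Epor and Klf1 under 4 on all arrays). Of 7 cartilage markers Col9a1 was lower, and the sum was 305 to 1003 at E17.5 and 3506 to 6183 at E12.5 (Snorc under 4). Of 5 Schwann and neural crest markers Erbb3 and Mbp were lower, and the sum of 821 to 1063 at E17.5 and 5083 to 7846 at E12.5 was nearly all Erbb3, with Sox10, Foxd3 and S100b under 4. Of 6 keratinocyte markers Trp63 and Epcam were lower, and the sum was 275 to 313 at E17.5 and 439 to 890 at E12.5, with none under 4 on all arrays. The part of these cell types in the cluster's differences was not tested.

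The genes flanking the cluster showed no rise of the size seen in its members. Of the 10 named genes on each side in the RefSeq gene order, 19 of 20 were measured, Begain being the one without a row. Of these 19, 1 was called higher, 2 lower and 16 were not called. Of all genes, 8.21% were called higher and 8.73% lower. Under alternative settings the neighbour counts ran from 0 to 3 higher and from 0 to 7 lower. The neighbours' differences had a median of -0.13 and a range of -1.10 to 0.47. No neighbour therefore came near the smallest member difference, 2.31.

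On the Dlk1 side, Evl, an actin regulator of the Ena/VASP family, averaged 10.52 at E17.5 and 11.63 at E12.5 (difference -1.10, limma adjusted p = 0.00186), but was not called with its probe sets averaged (-0.77, adjusted p = 0.0535) or with an unmarked probe set (-0.79, 0.199). Slc25a47, a mitochondrial carrier, averaged 6.32 at E17.5 and 7.40 at E12.5 (-1.08, adjusted p = 0.0282), and it missed the threshold without E12.5 C, E17.5 A or E17.5 B (adjusted p 0.0583 to 0.118). Closest to Dlk1, Wdr25 differed by -0.47 and the tryptophan tRNA ligase gene Wars by -0.70, neither called (adjusted p 0.306 and 0.0596). Without E17.5 C, Wars was called lower, at -0.91 (adjusted p = 0.0108). Of the others there, Eml1 differed by -0.41, Slc25a29 by -0.13 and the transcription factor gene Yy1 by -0.06. Cyp46a1 and Degs2 read under 4 at both ages.

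On the Dio3 side, the phosphatase subunit gene Ppp2r5c differed by 0.15 (called, at 0.47, with an unmarked probe set), the dynein heavy chain gene Dync1h1 by -0.27 and the chaperone gene Hsp90aa1 by 0.01. Farther out, Wdr20 differed by 0.25, Cinp by 0.47, Zfp839 by -0.11 and Tecpr2 by -0.30, and Mok and Ankrd9 read under 4 at both ages. Without E17.5 C, Wdr20 was called higher, at 0.53 (adjusted p = 0.0388). Rcor1, a corepressor subunit, averaged 10.67 at E17.5 and 10.35 at E12.5 (0.32, adjusted p = 0.0487) and missed the threshold without any 1 array other than E12.5 A (adjusted p 0.0572 to 0.213). Dio3os, an antisense RNA beside Dio3 that is no member, read 1.93, 1.93 and 1.97 at E17.5 and 1.94, 1.91 and 1.94 at E12.5, within the low range.

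**Figure D4:**
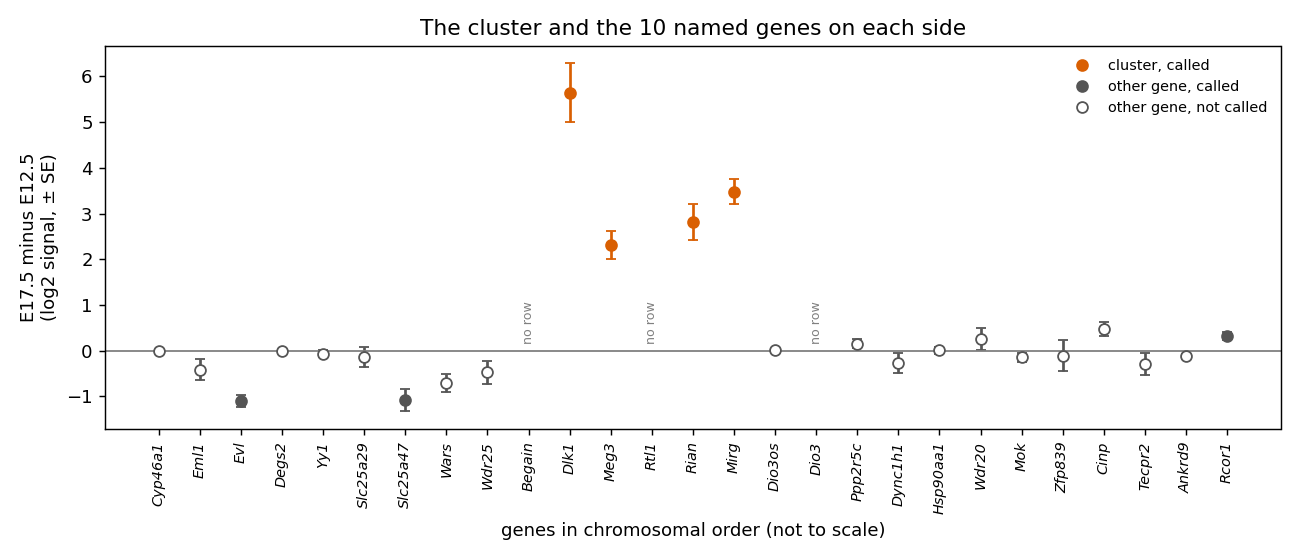
Difference in log2 signal, E17.5 minus E12.5, ± SE of limma, for the cluster (orange) and for the 10 named genes on each side in chromosomal order, evenly spaced. Filled points passed an adjusted p under 0.05, and genes without a row are marked. The 4 members lie between 2.31 and 5.64, and the measured genes around them between -1.10 and 0.47.

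Genes linked to the cluster, or counted for comparison with it, were taken from 8 lists. Their counts are set against the same 8.21% and 8.73% of all genes, and a list's difference from other genes was not tested. Those shares include the 42.8% of genes averaging under 4. Such genes numbered 4 for imprint control, 1 for Polycomb, 1 for Mef2 and 4 around Dlk1. They numbered 4 for thyroid hormone, 5 for other imprinted genes, 4 for retrotransposon-derived genes and 0 for microRNA enzymes. For them, not called does not mean unchanged. The first list held 15 measured genes that set, keep, read or remove imprints, among them DNA methyltransferases, Tet enzymes and zinc finger partners. Of these, 0 were called higher, 3 lower and 12 not, with a median of -0.16. None was higher at an unadjusted p under 0.05, and 1 was called higher without E17.5 C. Aff3, which in mouse stem cells binds the control region of this cluster, read 4.04, 3.74 and 2.86 at E17.5 and 7.65, 9.62 and 7.28 at E12.5 (-4.64, adjusted p = 0.00441). The de novo methyltransferase gene Dnmt3b differed by -1.27 (adjusted p = 0.000929) and Trim28, a corepressor recruited by imprint-keeping zinc finger proteins, by -0.85 (adjusted p = 0.00622).

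Polycomb repressive complex 2 methylates histone H3 and binds Meg3 RNA in mouse stem cells. Of its 11 genes 4 were called higher and 3 lower, with a median of 0.15. Of those that rose, the accessory subunit gene Aebp2 averaged 11.56 at E17.5 and 10.80 at E12.5 (0.76, adjusted p = 0.00745), the catalytic subunit gene Ezh1 differed by 0.77 and Phf19 by 1.09. Jarid2, which recruits the complex, averaged 8.40 at E17.5 and 9.76 at E12.5 (-1.36, adjusted p = 0.00181), Mtf2 differed by -1.30 and the other catalytic gene, Ezh2, by -0.37. Aebp2 was not called with its probe sets averaged (0.26, adjusted p = 0.214), nor Ezh1 (0.31, 0.0794), and Phf19 differed by 0.13 with values floored at 4 (0.489). The higher count was 1 or 2 without E17.5 A, B or C or E12.5 B or C. Ezh1 missed the threshold without any 1 of those 5 (adjusted p 0.0518 to 0.193), Phf19 without 4 of them (0.0693 to 0.0945), and Ezh2 without any 1 array (0.0641 to 0.169).

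Mef2 factors are muscle transcription factors that have been placed upstream of the cluster's noncoding RNAs in mouse muscle. Of 4 measured, Mef2a was called higher, averaging 10.53 at E17.5 and 9.33 at E12.5 (1.20, adjusted p = 0.00104), and 0 were lower, with none lower at an unadjusted p under 0.05.

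Genes around the Dlk1 protein were split. Of 14 measured, 3 were called higher, 3 lower and 8 not, with a median of 0.08. Notch1, the receptor whose signalling Dlk1 can dampen, read 12.34, 12.24 and 12.24 at E17.5 and 10.26, 10.11 and 10.30 at E12.5 (2.05, adjusted p = 7.6e-05). The Notch target genes Hey1 and Hes1 differed by -0.86 and -0.71. Notch4 differed by -1.91 but read 3.04, 3.20 and 2.71 at E17.5, within the low range. Under alternative settings its difference was as small as -0.62. Cebpd and Cebpb, early factors of fat cell differentiation, differed by 2.61 and 2.66. Adam17, which sheds the Dlk1 ectodomain, differed by 0.31 and Dlk2, the closest relative of Dlk1, by 1.39, neither called (adjusted p 0.198 and 0.101). Cebpb missed the threshold without E12.5 B, E17.5 A or E17.5 B (adjusted p 0.0651 to 0.0706), Hes1 without E17.5 A or B (0.0624 to 0.0655) and Hey1 without E12.5 C or any 1 E17.5 array (0.0564 to 0.0831). The lower count was 1 without E17.5 A or without E17.5 B.

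Dio3 inactivates thyroid hormone and was not analysed here, but 16 genes of that pathway were measured: 3 were called higher, 2 lower and 11 not, with a median of 0.02. Dio2, the deiodinase that activates the hormone and so works opposite to Dio3, read 6.97, 6.66 and 6.60 at E17.5 and 4.57, 3.36 and 4.17 at E12.5 (2.71, adjusted p = 0.00306). Slc7a5, an amino acid carrier that also moves thyroid hormone, differed by 1.49 (adjusted p = 0.000596). The receptor gene Thra differed by 1.24 (adjusted p = 0.0234) and missed the threshold without E12.5 B or C (0.0715 and 0.0784). Crym, a cytosolic binder of the hormone, read 3.63, 3.44 and 4.24 at E17.5 and 9.29, 8.74 and 9.66 at E12.5 (-5.46, adjusted p = 0.00018). The retinoid X receptor gene Rxrg differed by -2.38.

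Genes outside this cluster that are listed as imprinted were counted for comparison, and whether they are imprinted in these cells was not measured. Of 27 measured, 10 were called higher, 1 lower and 16 not, with a median of 0.46. The largest called rise was that of Gatm, an enzyme of creatine synthesis, which averaged 8.87 at E17.5 and 6.12 at E12.5 (2.75, adjusted p = 0.000961), followed by Zim1 at 1.61 and Sgce, a sarcoglycan of the dystrophin complex, at 1.15. Sgce turned to -0.25, not called, when an unmarked probe set was used, one whose name has no _s, _x or _a mark. Nnat fell to an average of 7.55 at E17.5, against 10.99 at E12.5 (-3.45, adjusted p = 0.00255). The higher count was 6 without E12.5 C, 5 without E17.5 A and 4 without E17.5 B, and the lower count 2 without E17.5 C.

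Like Rtl1, some other genes derive from the same class of retrotransposons. Of 6 measured, Rtl3 was called higher and Rtl6 lower. Rtl3 read 12.44, 12.45 and 12.26 at E17.5 and 6.78, 8.87 and 8.08 at E12.5 (4.47, adjusted p = 0.00139). Rtl6 differed by -1.27 (adjusted p = 0.0255) and missed the threshold without any 1 array other than E12.5 A (0.0568 to 0.0913).

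None of the enzymes and carriers that make microRNAs from transcripts such as Mirg was called higher. Of 10 measured, 0 were called higher, 5 lower and 5 not, with a median of -0.59. None was higher at an unadjusted p under 0.05, and 1 was called higher without E17.5 C. Dicer1, which cuts the hairpins to mature length, averaged 8.17 at E17.5 and 9.42 at E12.5 (-1.25, adjusted p = 0.0158), the nuclear exporter gene Xpo5 differed by -1.11 and Tarbp2, a Dicer partner, by -0.78. The lower count was 3 without E12.5 B, 1 without E12.5 C and 2 without E17.5 A or without E17.5 B. Dicer1 missed the threshold without E12.5 C (adjusted p = 0.0563), Tarbp2 without E12.5 C, E17.5 A or E17.5 B (0.0614 to 0.0713), and Xpo5 without any 1 array other than E12.5 A (0.104 to 0.142).

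**Figure D5:**
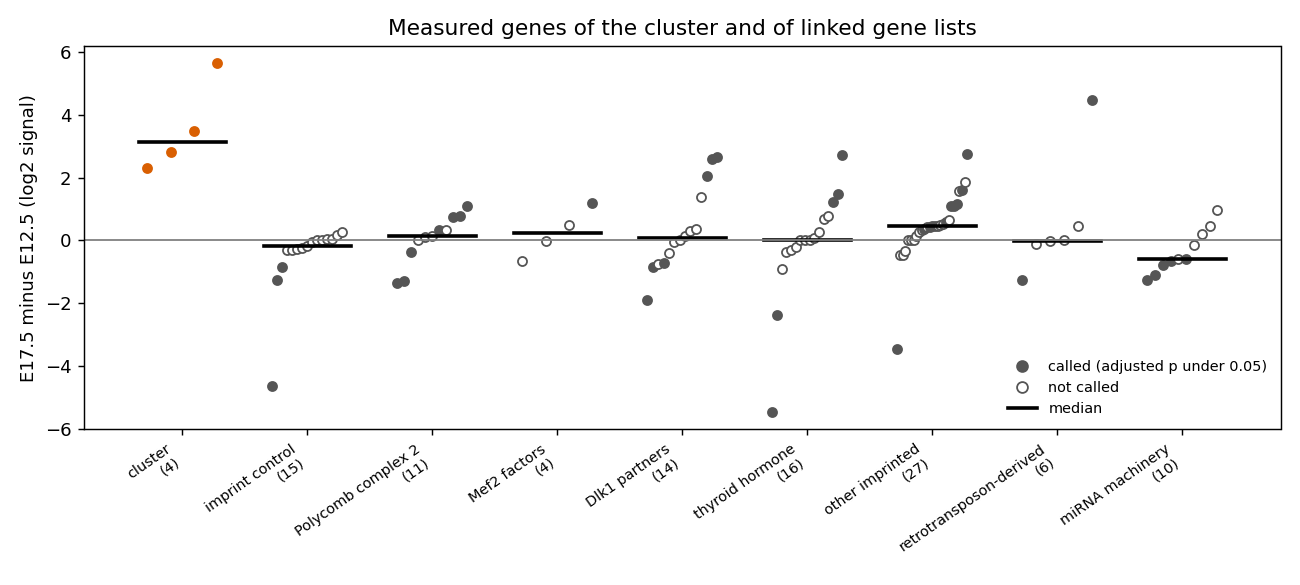
Difference in log2 signal, E17.5 minus E12.5, for each measured gene of the cluster (orange) and of 8 linked lists (grey), with the number measured in brackets. Filled points passed an adjusted p under 0.05 and bars mark medians. The 4 members lie between 2.31 and 5.64, while the list medians lie between -0.59 and 0.46.

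The genes whose profiles over the 6 arrays were most like those of each member were found by the root mean square difference between log2 profiles after each gene's mean was subtracted, among 8758 genes with a mean of at least 6. For Dlk1 these were Fndc1 at 0.43, the cell surface sialomucin gene Cd34 at 0.45 and the caveolar coat gene Cavin1 at 0.52. For Meg3 they were the metalloproteinase inhibitor gene Timp3 at 0.19, Socs2 at 0.23 and Emp1 at 0.23. For Rian they were the nuclear envelope gene Syne1 at 0.34, Pvr at 0.37 and Cbr3 at 0.37, and for Mirg Tagln2 at 0.22, the lamin gene Lmna at 0.23 and Dusp3 at 0.24. These are the smallest values among all genes searched, so values between members are given for size and not as a contrast. They were 0.69 between Meg3 and Mirg, 0.73 between Rian and Mirg and 0.85 between Meg3 and Rian. Dlk1 stood farther off, at 1.36 from Mirg, 1.77 from Meg3 and 1.83 from Rian. The measure grows with the size of the age difference, so it places genes of like size together.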

How the data were processed

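For each probe set the authors deposited a log2 signal. Per the submitters' processing notes it came from GCRMA, whose version is not given in the sources used here. Per the labels' protocols, 100 ng of total RNA from sorted cells was amplified from the 3′ end in a two-cycle protocol and labelled with biotin. Signal therefore depends on probe position and RNA integrity, and depth is signal over background.

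Of 44994 probe sets, 34909 had 1 symbol, 9154 had no name here, and 931 with several symbols stayed out. Symbols were updated by entrez ID to RefSeq (GRCm38.p6) for 34705. For each of 18182 genes the brightest probe set, by its mean over the 6 arrays, was used. Limma 3.58.1 in R 4.3.3 (lmFit, eBayes with trend) was fitted on the log2 values with no further normalization, and again over all probe sets. It was also run on simulated arrays drawn independently of each other, which leaves out the likeness of E17.5 A and B. Pairs of members were compared by an exact permutation test (scipy 1.17.1), and figures drawn with matplotlib 3.10.9.

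The text names the 6 members, the 10 named genes on each side, up to 3 risen and 3 fallen called genes per list, and the 3 genes most like each member. Dio3os, Adam17 and Dlk2 were added after their values were seen. The members and lists were chosen with earlier results of these data known. As alternatives, the fit was run with a robust or an untrended prior, weights per array, unmarked or averaged probe sets, filters and a floor on low signal, other scalings, the replicate letter as a block, E17.5 A and B averaged, a threshold of 0.01, and leaving out each array.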

Additional observations from a re-analysis of the deposited data

How the results depend on the processing

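The 4 members were called higher under every alternative in which they were tested, with limma adjusted p up to 0.012 for Dlk1 (differences 5.11 to 7.59), 0.0182 for Meg3 (2.05 to 2.91), 0.0206 for Rian (2.445 to 3.48) and 0.00482 for Mirg (2.61 to 3.62). Mirg was not tested where genes needed a mean of at least 6, which left 3 members. With probe sets averaged per gene, the Dlk1 difference exceeded that of Meg3 by 4.37 and that of Mirg by 4.01; with the second Rian probe set it exceeded that of Rian by 1.3567. The letters A, B and C gave no sign of paired samples: same-letter deviations correlated at -0.38, 0.25 and -0.07. Not every array correlated best with its own letter, and 3 arrays per age cannot decide whether the letters were paired. With the letter as a replicate block, the differences stayed at 5.64, 2.31, 2.81 and 3.48, with adjusted p of 0.00762 for Dlk1, 0.00494 for Meg3, 0.0206 for Rian and 0.00482 for Mirg. All-gene counts of 1493 higher and 1587 lower became 3205 and 5219 with array weights, 841 and 701 at a threshold of 0.01, 1014 lower with the replicate block and 825 lower with E17.5 A and B averaged. Without 1 array they ran from 969 to 1553 and from 770 to 1776.

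Of 50 other named genes, 17 kept their call under every alternative and 16 lost it under at least 1, while 8 uncalled genes gained one, and the cause was not tested. Apart from Degs2, which is near 0 in both (-0.0033, and 0.0017 without E17.5 B), signs turned for 7. With unmarked probe sets these were Sgce (-0.25), Cinp (-0.48) and Slc25a29 (0.0267). With array weights they were Dio3os (-0.008), Hsp90aa1 (-0.0138) and Zfp839 (0.2115). Yy1 was at 0.1525 with the mean of probe sets, and Hsp90aa1 at -0.0067 centred on bright genes. Without 1 array, Hsp90aa1 ran from -0.0167 to 0.0233 and Zfp839 from -0.3033 to 0.2317. Signals under 4, such as those of 1442724_at at E12.5, bound a fold through the background model. The number of arrays limits the precision.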
